A study of Drosophila melanogaster with 8 samples.

Results

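The genes described here are the Enhancer of split genes and the Bearded genes of *Drosophila melanogaster*. They were taken as every gene symbol of the deposited matrix that begins with *E(spl)m*, plus *Brd*, *Tom*, *Ocho* and *BobA*, which gave 15 of 12610 genes. *BobB* and *E(spl)m1* are not analysed here. Whole-body nuclei were isolated from wild-type *w1118* larvae at the end of larval life, 5 days after the eggs were laid. Every one of the 8 samples combined 16 animals, 8 of each sex, and was run as a droplet library of its own. All samples share this strain, age and handling, so there is no treatment to compare, and the libraries served as replicates. The authors sorted the 30819 nuclei into 28 clusters and named most of them for a tissue. The matrix holds counts of unique molecular identifiers (UMIs, each marking 1 RNA molecule) after subtraction of ambient RNA, and levels are given as CPM, the counts per 1000000 summed UMIs of a group of nuclei.

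When the receptor Notch is activated by a ligand such as Delta on a neighbouring cell, its intracellular part enters the nucleus and, with the DNA-binding protein Su(H), switches on the Enhancer of split genes. Their basic helix-loop-helix (bHLH) products recruit the co-repressor Groucho and repress proneural genes, which keeps cells from becoming neural precursors in lateral inhibition. Bearded family proteins are small, bind the ubiquitin ligase Neuralized and limit the endocytosis of Delta that gives the ligand its activity. The study's own aim was a map of secreted proteins between tissues, and the nuclei were a reference for it.

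Of the 15 genes, 7 encode bHLH repressors (*E(spl)mdelta-HLH*, *mgamma*, *mbeta*, *m3*, *m5*, *m7* and *m8*), and 4 encode Bearded family proteins inside the same complex (*E(spl)malpha-BFM*, *m2*, *m4* and *m6*). The other 4, *Brd*, *Tom*, *Ocho* and *BobA*, are Bearded family genes in a second group. Genes of the complex are named below by the last part of their symbol. In the BDGP6.54 annotation the 11 genes of the complex lie within 43.4 kb of chromosome 3R, from 25997621 to 26041008. The other 4 lie within 30.5 kb of chromosome 3L, from 14945499 to 14976040. Every one of the 15 is annotated with a single exon per transcript, none overlaps another gene, and the gene lengths run from 532 bp (*Brd*) to 1305 bp (*m3*). Bearded family genes include near-identical copies, so counts of *BobA* are uncertain.

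The libraries held 3090 to 5405 nuclei and 3815618 to 6488757 corrected UMIs, with a median of 804 to 1069 UMIs per nucleus. A barcode of 2236 nuclei (7.26%) also occurred in another library, most often in the 8 clusters the authors called mixed (25.8% of their nuclei, against 1.33% elsewhere). The libraries are named by the number in the barcodes, because the files do not tie these numbers to the sample names. Nothing says that the samples are independent beyond their separate labels, so the spread between libraries may be partly technical. Salivary glue transcripts, which gland cells make, were present in every cluster described below. *Sgs3*, for example, reached 38.2 to 241 CPM in clusters 0, 14, 19, 20, 21 and 24.

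The 15 genes together took 21310 corrected UMIs, or 556 CPM over all nuclei, and 9353 nuclei (30.3%) had a value above 0 for at least 1 of them. Of their values above 0, 12.4% were under 0.5, since the ambient correction leaves fractions. The level of *mbeta* was the highest, at 198 ± 45.7 CPM (SD, n = 8 libraries), followed by *malpha* at 64.1 ± 18.8, *Tom* at 50.6 ± 19 and *m2* at 44.8 ± 20.1. The lowest levels were those of *m5* (3.04 ± 1.80), *mdelta* (3.54 ± 1.53), *BobA* (4.16 ± 4.32) and *m6* (4.90 ± 2.92). Since each UMI marks 1 RNA molecule, these levels were not scaled to gene length.

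Over the clusters the genes split into several patterns. The summed level of the 15 genes was highest in eye disc cluster 14 (mean of 2583 CPM), then in gonad cluster 24 (2251), neuron cluster 20 (1769), disc cluster 0 (1126), mixed cluster 19 (1110) and intestinal stem cell (ISC) cluster 21 (849). Median depth did not follow this order, at 898, 858, 1314, 1071, 628 and 1429 UMIs per nucleus in the same sequence. Fat body clusters 4 and 13 held the lowest sums with a library-level value, at 28.3 ± 25.2 and 17.8 ± 6.88 CPM (n = 7 each), although nuclei of cluster 13 had a median of 1703 UMIs.

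**Figure D1:**
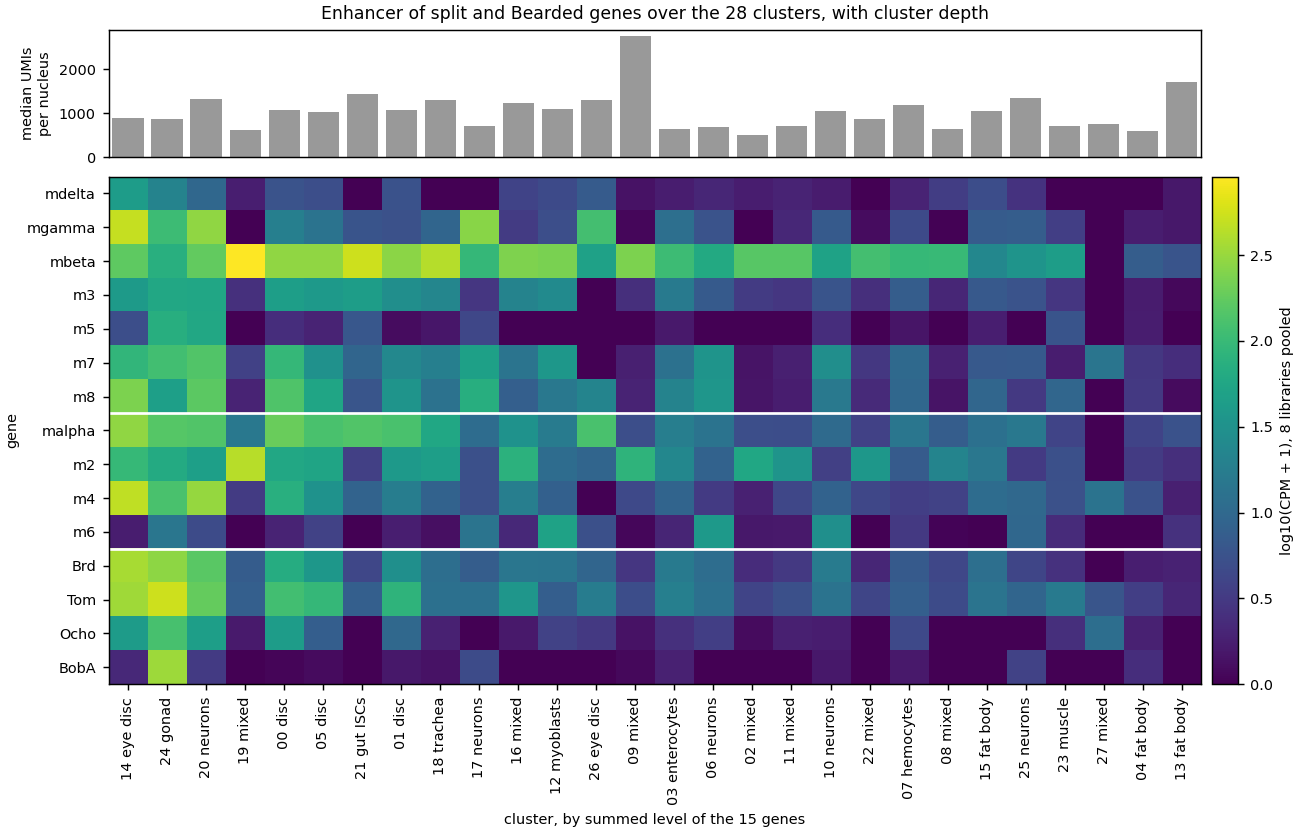
The colour gives the level of each gene (rows, white lines between the 3 gene groups) in each cluster (columns, ordered by the summed level) as log10(CPM + 1) over the pooled libraries, and the bars above give the median UMIs per nucleus. Cluster 14 is bright for *mgamma* and *m4*, cluster 19 for *mbeta* and *m2*, and *BobA* is bright in cluster 24.

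Cluster 14 had 12 members at 30 CPM or more, as did cluster 20, against 13 in cluster 24. It carried the eye determination genes *eya* (1241 CPM) and *so* (439), whereas *elav*, a gene of differentiated neurons, reached 304 CPM against 1418 in eye disc cluster 26. *mgamma*, which in the eye and brain is among the Notch-responsive repressors, ranged from 174 to 788 CPM over the 8 libraries with a mean of 457 ± 233. *m4*, a Bearded family gene, ranged from 128 to 634 CPM with a mean of 448 ± 181. Library 1 was the lowest for both genes. *Brd* (258 to 487 CPM, mean 378 ± 69.4) and *Tom* (259 to 523, mean 359 ± 98.7) varied less.

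*m8*, the gene altered in the dominant Enhancer of split allele, stood at 207 ± 107 CPM in cluster 14, with 49.4 in library 8 and 360 in library 2. *mdelta*, which is known from the developing eye, was highest there too but low, at 38.8 ± 32.1 CPM and 0 in library 1. *mbeta*, the leading gene over all nuclei, made up 6.15% of the family's UMIs in this cluster. Against all other nuclei, 9 of the 11 members tested were at least 0.54 higher on the log2 scale at an adjusted p under 0.05, where 9.53% of all genes were. This and the other comparisons of a cluster with the rest only describe the clusters, which were made from the same counts. The change was 4.33 (SE 0.31) for *mgamma*, 3.95 (SE 0.29) for *m4* and 3.70 (SE 0.18) for *Brd*, and -0.62 (SE 0.23) for *mbeta*.

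Eye disc cluster 26 held more *gl* (961 CPM against 639), the photoreceptor regulator glass, and *brp* at 7023 CPM, a gene of the presynaptic zone. There, *m3*, *m4* and *m7* were at 0 in all 7 libraries with enough nuclei. *mgamma* (84.5 ± 45.8 CPM) and *malpha* (112 ± 73.8 CPM) led. For 7 members, namely *mgamma*, *m3*, *m7*, *m8*, *m4*, *Brd* and *Tom*, the lowest library of cluster 14 lay above the highest of cluster 26, which held for 7.64% of all genes compared. The range of *malpha* overlapped between both clusters.

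Neuron cluster 20 resembled cluster 14 in its mixture. *m4* led with 304 ± 68.6 CPM (167 to 382 over 8 libraries), next to *mgamma* with 279 ± 100 (119 to 440) and *Tom* with 189 ± 65.2 (102 to 287). Library 1 was again the lowest for each of these. *m5*, close to 0 in most clusters, reached 61.0 ± 35.5 CPM here. Here 10 of 12 members tested were higher than in all other nuclei by the limits given above, namely *mgamma*, *m3*, *m5*, *m7*, *m8*, *malpha*, *m4*, *Brd*, *Tom* and *Ocho*, beside 7.94% of all genes. *malpha* was not called without library 6. *mbeta* was called lower (-0.68, SE 0.26), a call lost with the library as a block and without library 1, 2, 5, 7 or 8. Cluster 20 had little of the mature neuron gene *nSyb* (23.8 CPM, against 385 in neuron cluster 6), as did neuron cluster 17 (20.9). Of the disc genes, *Sp1* was at 913 CPM and *hth* at 6614. Neuron clusters 6, 10, 17 and 25 had these too, at 280 to 690 CPM of *Sp1* and 3692 to 5608 of *hth*.

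Neuron cluster 17, with more of the neuroblast genes *dpn* (123 CPM) and *ase* (97.6), matched cluster 20 in *mgamma* but not in the Bearded genes. *mgamma* stood at 279 ± 130 CPM (84.8 to 436), whereas *m4* was at 5.92 ± 9.59, *Brd* at 6.89 ± 11 and *Tom* at 8.49 ± 13.1. Library ranges of *m3*, *malpha*, *m4*, *Brd*, *Tom* and *Ocho* in cluster 20 lay wholly above those in cluster 17, as for 3.1% of all genes compared. In cluster 17 the 63 nuclei with most family UMIs held 90.8% of them, against 43.9% in the top 52 of cluster 20, the same share of nuclei. Depth differed too, at a median of 712 UMIs in cluster 17 and 1314 in cluster 20, and 16.8% and 73.6% of nuclei held a member.

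Gonad cluster 24 had enough nuclei in 5 libraries, and its germline markers were present at low levels (*vas* 61.4 CPM, *nos* 59.3, *bam* 30.8). The neuroblast markers *mira* (133 CPM), *dpn* (61.9), *wor* (32.2) and *ase* (22) were there too, and their part in the family's levels was not tested. *mesh*, a gene of gut junctions, was at 86.7 CPM, and *tj*, a somatic gonad gene, at 2.25. *Tom* was at 330, 549, 524, 609 and 622 CPM in libraries 1, 2, 3, 4 and 6. *BobA*, a small Bearded family gene, was at 143, 287, 373, 353 and 381 CPM in the same libraries. In every other cluster with library-level values the mean of *BobA* was 3.38 CPM or less, and no library there reached the lowest of the gonad libraries. *Ocho* (118 ± 33.1 CPM) also had its highest mean here, and *Brd* stood at 299 ± 38.0. The members higher than in all other nuclei were *m5*, *m7*, *m4*, *Brd*, *Tom*, *Ocho* and *BobA*, 7 of 14 tested, beside 17.4% of all genes, and *mbeta* was called lower (-1.97, SE 0.33). The call of *m4* was lost without library 1, 2, 4 or 6, and that of *m7* without library 1.

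The bHLH genes of cluster 24 varied more between libraries. *m3* was at 44.0, 234, 27.5, 55.7 and 50.1 CPM, and *m5* at 47.5, 188, 65.1, 56.0 and 69.4, with library 2 far above the others in both.

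The discs held a steadier profile, in which *mbeta* and *malpha* led. Disc clusters 0, 1 and 5 had *mbeta* at 284 ± 59.4, 279 ± 32.4 and 292 ± 52.6 CPM, with overlapping ranges. *malpha* was at 193 ± 40.7 CPM in cluster 0 and 127 ± 41.8 in cluster 1. *m8* separated them, with 78.5 to 170 CPM in cluster 0 and 17.6 to 59.2 in cluster 1. The ranges of *m8*, *Brd* and *Ocho* lay higher in cluster 0 than in cluster 1 without overlap, which was so for 2.05% of all genes compared, while no member separated cluster 0 from cluster 5. Cluster 0 held 8 members above all other nuclei (*m3*, *m7*, *m8*, *malpha*, *m4*, *Brd*, *Tom* and *Ocho*), beside 22.7% of all genes.

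**Figure D2:**
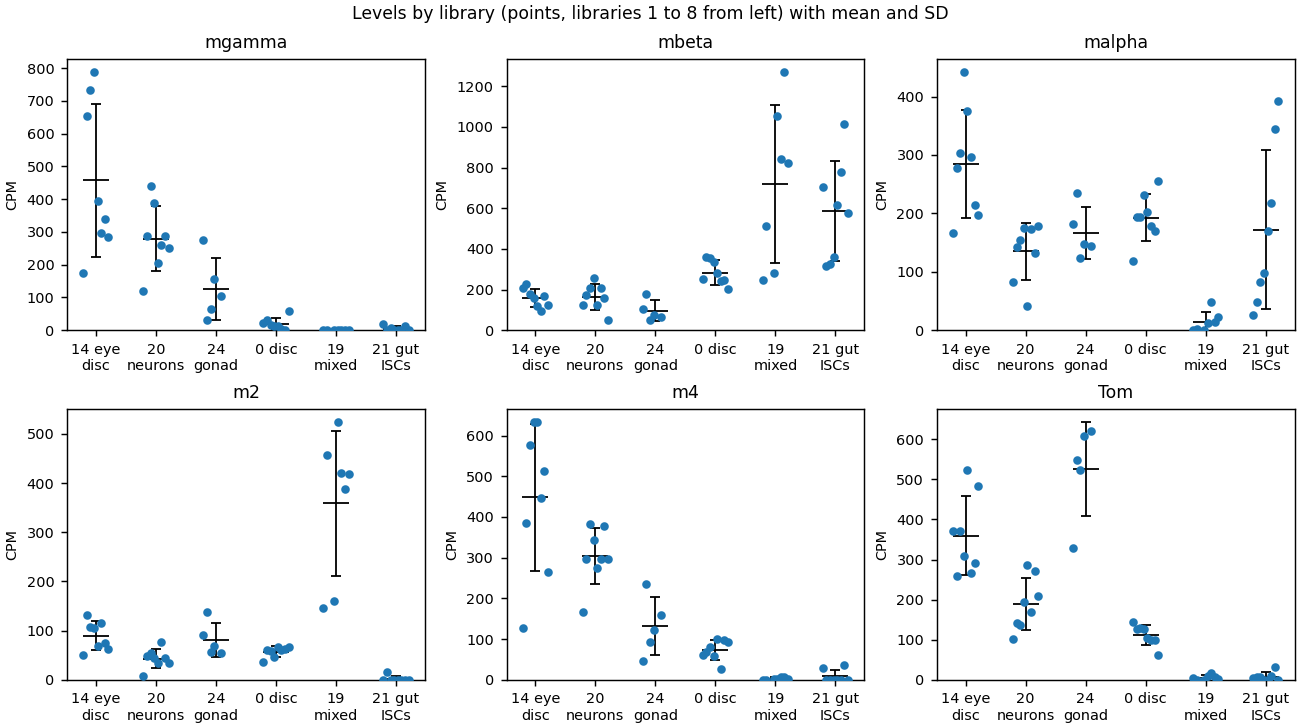
Each panel shows 1 gene in 6 clusters, with CPM on the vertical axis, a point for each library and a bar for the mean with its SD. *mgamma* and *m4* sit highest in clusters 14 and 20, *mbeta* and *m2* in cluster 19, and *Tom* in clusters 24 and 14.

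Mixed cluster 19 was the opposite of cluster 14. *mbeta* was at 719 ± 387 CPM and *m2*, a Bearded family gene, at 359 ± 148 over 7 libraries. Together they made up 97.4% of the family's UMIs there. Of 10 members tested, these were higher than in all other nuclei, by 2.09 (SE 0.38) and 3.29 (SE 0.35) on the log2 scale, beside 12.6% of all genes. The other 8 were called lower, among them *m8* (-4.42, SE 0.69), *m4* (-3.32, SE 0.67) and *Brd* (-2.24, SE 0.51). The median change of all genes there was -0.43, and the share of all genes called lower is not given here. Fat body transcripts were in the cluster as well, with *Lsp2* at 952 CPM against 4085 over all nuclei. The glial genes *Gs2* (1305 CPM) and *moody* (30.7) were at their highest here. Other glial genes were not, with *repo* and *alrm* at 0 and *nrv2* at 16.5 CPM against 49.8 over all nuclei. In cluster 19, 25.1% of barcodes occurred in another library. Mixed clusters 2, 9 and 22 also had *mbeta* and *m2* in front, with 93.8%, 94.6% and 91.0% of the family's UMIs.

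In these mixed clusters *mbeta* differed between libraries. For cluster 9, the deepest with a median of 2743 UMIs, libraries 1 to 4 had 101, 102, 51.4 and 53.4 CPM, and libraries 5 to 8 had 338, 321, 265 and 300. In cluster 19, libraries 1, 2 and 4 had 249, 514 and 279 CPM, and libraries 5 to 8 had 1053, 844, 1272 and 820. The same 4 libraries were the higher ones in clusters 2, 8 and 22, while the ranges overlapped in cluster 11. Disc cluster 0 did not show it, with 252, 362, 354 and 333 CPM in libraries 1 to 4 and 279, 240, 248 and 201 in libraries 5 to 8. This split was seen in the same values, and the share of all genes that follow it was not counted. The labels give no split of the samples along these numbers, and its cause was not tested.

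**Figure D3:**
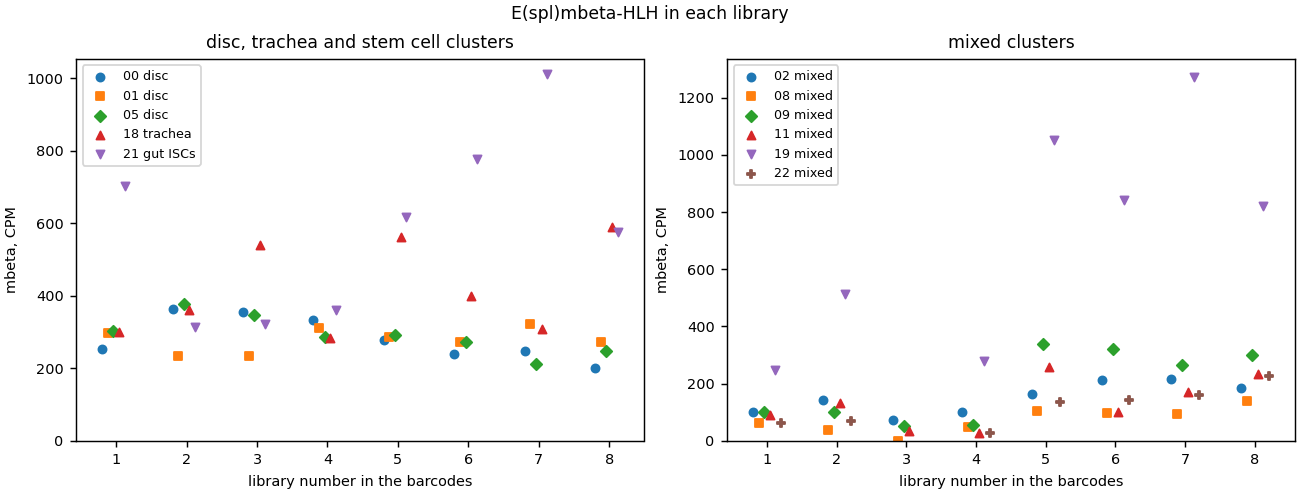
Points give *mbeta* in CPM (vertical axis) for each library number (horizontal axis), with disc, trachea and stem cell clusters on the left and mixed clusters on the right. In the right panel libraries 5 to 8 of clusters 2, 8, 9, 19 and 22 lie above libraries 1 to 4, and the disc clusters on the left show no such step.

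Other tissues held *mbeta* with few partners. ISC cluster 21 had *esg* at 109 CPM, the highest of the 28 clusters. Its *Dl*, at 664 CPM, was below the 1322 to 1394 of disc clusters 0, 1 and 5. In cluster 21 *mbeta* was at 585 ± 247 CPM, *malpha* at 172 ± 137 and *m3* at 44.5 ± 32.0. Against all other nuclei, 1 of 10 members tested was called higher, *mbeta* (1.01, SE 0.25), beside 11.1% of all genes. Another 7 were called lower, and the share of all genes called lower is not given here. *malpha* was called higher as well with the library as a block or without library 1, 2 or 3, and *m3* too without library 3. *malpha* had 26.7, 49.0, 81.7 and 97.1 CPM in libraries 1 to 4 of this cluster and 169, 217, 345 and 392 in libraries 5 to 8. How many other genes split this way was not counted. Trachea cluster 18 had *mbeta* at 418 ± 127 CPM. *m6*, a Bearded family gene, was highest in myoblast cluster 12 (44.0 ± 32.4 CPM) and neuron cluster 6 (43.0 ± 38.7). *Him*, a gene of muscle precursors, was at 124 CPM in cluster 12, and *brp* at 3018 in cluster 6. *m6* did not follow *brp*, with 26.6, 6.51 and 4.77 CPM in clusters 10, 25 and 26, where *brp* was at 1332, 1630 and 7023. In cluster 17 *m6* was at 23.3 CPM and *brp* at 34.2.

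Shares of nuclei show how often the genes were seen. At least 1 member was above 0 in 65.8% of nuclei of cluster 14, 73.6% of cluster 20, 77.4% of cluster 24 and 47.8% of cluster 0, against 4.80% in fat body cluster 4 and 6.24% in fat body cluster 13. After each nucleus was thinned to 300 UMIs, the shares were 40.3%, 39.5%, 45.5% and 23.9%, against 0.696% and 0.925% in the fat body. Thinning left out 1 nucleus each of clusters 14 and 20, none of cluster 24, 8 of cluster 0 and 230 of cluster 4. In cluster 20, 32.5% of nuclei (SD 10.2, n = 8) had at least 3 members, and in cluster 14, 22.3% (SD 5.64). The most in a single nucleus of cluster 0 or cluster 20 was 11 and 10 members.

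Within nuclei, some members were found together well above their share in the other nuclei, and the pairs with *Tom* differed by partner. In cluster 0, *m7* was above 0 in 37.4% of the 318 nuclei with *m8* and in 4.61% of those without. *m8* itself was above 0 in 49.0% of the 151 nuclei with *m4* and in 7.37% of the rest. *mbeta* was above 0 in 25.8% of the 403 nuclei with *Tom*, close to the 21.7% of those without. *Brd*, a neighbour of *Tom* on 3L, was above 0 in 10.4% of the same nuclei and in 4.54% of the others, and *Tom* itself in 28.9% of nuclei with *Ocho* and 11% of those without. Depth differed little between these sets, with a median of 1176 against 1060 UMIs by *m8* and 1184 against 1056 by *Tom*. In cluster 14, *mgamma* was above 0 in 55.0% of nuclei with *m4* and in 11.4% of the others, while *malpha* was above 0 in 14.1% with *Tom* and 18% without, and *Brd* in 37.6% with *Tom* and 14.8% without. These shares describe nuclei of shared libraries and carry no test.

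The next comparisons split nuclei of a cluster or group of clusters by genes outside the family. Where several clusters are pooled, both sets can hold them in different shares, so values inside single clusters are given too. Counts were summed per library in each set of nuclei and compared with edgeR's quasi-likelihood test with p-values adjusted by the Benjamini-Hochberg method over all genes tested. The first asked whether disc nuclei that express the ligand gene *Dl* differ in the family. Among nuclei of disc clusters 0, 1 and 5, 5053 had *Dl* above 0 and 3333 had it at 0, with a median of 1136 and 946 UMIs.

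*Dl*-positive disc nuclei had more of 7 members, namely the bHLH genes *mbeta*, *m3*, *m7* and *m8* and the Bearded family genes *malpha*, *m2* and *m4*. No member was lower. The filter on low counts left 10 members to test, and over all genes 28 of 3700, or 0.757%, were called higher, the 7 among them. The largest changes after that of *Dl* itself, which defined the groups and was left out of the counts, were those of *m4* and *m8*. The members were chosen with earlier results of these data known, but neither the rule for the members nor that for the nuclei used this difference.

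For *m8*, the lowest, median and highest library had 82.0, 114 and 141 CPM in *Dl*-positive nuclei and 9.26, 31.4 and 50.7 in *Dl*-negative ones. All 8 libraries of the positive sums were above all of the negative ones, a log2 change of 1.82 (SE 0.19, adjusted p = 6.09e-06, edgeR). *m4* had 32.3, 58.8 and 78.5 CPM against 2.59, 13.4 and 24.4, a change of 1.97 (SE 0.27, adjusted p = 0.000315, edgeR). *mbeta* had 281, 346 and 383 CPM against 146, 190 and 227, which was a smaller change of 0.81 (SE 0.08, adjusted p = 2.87e-06, edgeR) but the most even. *malpha* had 141, 189 and 248 CPM against 48.4, 92.5 and 125, a change of 1.11 (SE 0.16, adjusted p = 0.000648, edgeR). *m2* had 45.0, 60.0 and 80.6 CPM against 17.3, 30 and 33.7, a change of 1.03 (SE 0.15, adjusted p = 0.000707, edgeR). The library ranges of these 5 genes did not overlap, which was the case for 0.459% of all genes tested in the same direction.

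*m7* was higher in all 8 libraries with overlapping ranges, at a median of 72.9 against 30.1 CPM and a change of 1.27 (SE 0.25, adjusted p = 0.00735, edgeR). *m3* was higher in 7 of 8, at 41.4 against 24 CPM and 0.90 (SE 0.21, adjusted p = 0.0383, edgeR). The call of *m3* was lost without any single one of libraries 2 to 8, with adjusted p up to 0.215 in edgeR.

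The Bearded genes outside the complex were less clear. *Brd* had a median of 54.0 against 33.7 CPM, higher in 7 of 8 libraries, and a change of 0.60 (SE 0.17, adjusted p = 0.117, edgeR). *Ocho* had 25.3 against 14.8 CPM, also in 7 of 8, and 0.96 (SE 0.31, adjusted p = 0.201, edgeR). With the library as a block, both were called, at adjusted p = 0.0333 for *Brd* and 0.0122 for *Ocho* (edgeR), where 2.11% of all genes were called higher. *Tom* had a median of 100 CPM in positive and 96.8 in negative nuclei, higher in 5 of 8 libraries. Its change was 0.00 with an SE of 0.11. Whether *Tom* differed from the other members was not tested.

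Of the 5 members under the filter, *mgamma* was higher in 8 of 8 libraries (mean of 16.1 against 5.48 CPM) and *mdelta* in 6 of 8 (5.99 against 2.63). *m5*, *m6* and *BobA* had means of 2.11 CPM or less in both sets.

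**Figure D4:**
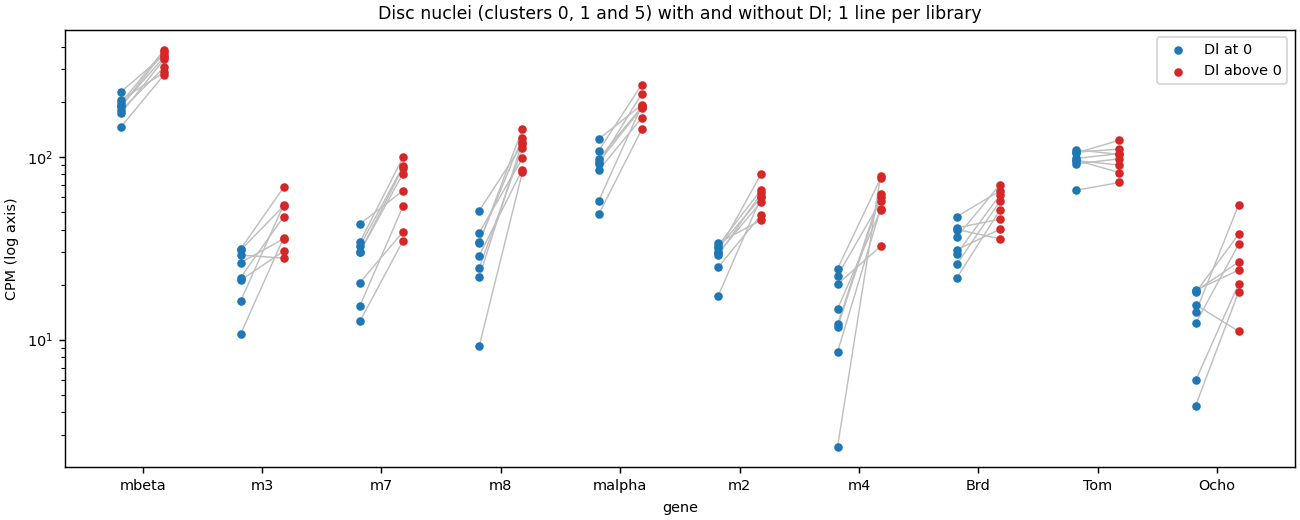
For the 10 members tested, each line joins the CPM (log axis) of *Dl*-negative (blue) and *Dl*-positive (red) disc nuclei of 1 library. The red points of *mbeta*, *m8*, *malpha*, *m2* and *m4* lie above all their blue points, and those of *Tom* lie at the same height.

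In an alternative added after seeing the data, each *Dl*-positive nucleus was paired to a negative one of the same library and cluster within 10% of its UMIs (3005 pairs, median 939 and 992 UMIs). The same 7 members were called in these pairs, beside 0.61% of all genes. *m8* then changed by 1.93 (SE 0.25) and *mbeta* by 0.82 (SE 0.09). Inside cluster 0 alone, *mbeta*, *malpha*, *m4*, *m2* and *m8* were called (0.704% of all genes). Cluster 1 alone called *mbeta* by 0.88 (SE 0.12) and *malpha* by 1.28 (SE 0.28), beside 0.993% of all genes. In cluster 5 none was called, where 2 members passed the filter, *mbeta* with 0.85 (SE 0.21, adjusted p = 0.0666, edgeR) and *malpha* with 0.79 (SE 0.31, adjusted p = 0.306, edgeR). Both had an unadjusted p under 0.05 there, a limit not counted over all genes. At the adjusted limit 0.322% of all genes were called higher.

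Other genes of the pathway were counted by list. Of the Notch core list (16 genes without *Dl*), 11 were tested, 1 rose and 1 fell. *Ser*, the other Notch ligand, rose by 1.29 (SE 0.09, adjusted p = 2.24e-08, edgeR), and *fng*, which glycosylates Notch, fell by 0.43 (SE 0.10, adjusted p = 0.033, edgeR). The median change of the 11 was 0.04, against 1.00 for the 10 members and 0.00 for all genes. Of the proneural and sensory organ precursor list, 4 of 13 were tested and 1, *sca*, which encodes a secreted protein of lateral inhibition, rose by 0.87 (SE 0.15). Of 9 other Notch targets and Hes-type repressors, 5 were tested and *vg*, the wing selector gene, rose by 0.96 (SE 0.19).

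The proneural comparison asked whether nuclei with proneural genes or the precursor gene *sens* differ in the family. In disc clusters 0, 1 and 5, *sc* was at 10.3 to 19.2 CPM and *ac* at 4.2 to 8.4. *l(1)sc* was at 0 there and *sens* at 1.12 or less, so *sens* added little to the choice. In the same disc clusters 183 nuclei had *ac*, *sc*, *l(1)sc* or *sens* above 0, and 8203 had none, at a median of 1212 and 1050 UMIs. None of the 10 members tested was called by edgeR, while 0.305% of all genes were called higher. At an unadjusted p under 0.05 there were 3, all in the direction of a higher level in proneural-positive nuclei. How many of all genes passed this unadjusted limit was not counted. *malpha* had a median of 285 against 153 CPM, higher in 7 of 8 libraries, and a change of 1.00 (SE 0.30, adjusted p = 0.153, edgeR). *m4* changed by 1.47 (SE 0.45, adjusted p = 0.176, edgeR) and *m8* by 1.04 (SE 0.37, adjusted p = 0.283, edgeR).

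The positive sums were thin, at 15 to 36 nuclei per library. *malpha* was at 0 in the positive nuclei of library 1, *m8* in those of library 6, and *m4* in those of libraries 5, 6 and 8. DESeq2 called these 3 genes higher (adjusted p = 0.00477, 0.0013 and 0.0199 for *malpha*, *m4* and *m8*), beside 0.763% of all genes. Without library 1, edgeR called *malpha* too (adjusted p = 0.0344). No member passed the filter once depth was matched.

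Among nuclei of the neuron clusters (6, 10, 17, 20 and 25), those with at least 2 of the neuroblast genes *dpn*, *mira*, *wor* and *ase* were set against those with none. Only libraries 2, 3, 4 and 7 held at least 5 such nuclei, 34 in all against 2046, and the median depth of all such nuclei was 1336 against 859 UMIs. Of all 43 such nuclei, 32 lay in cluster 17 and 9 in cluster 20, where *mgamma* averaged 279 CPM each, whereas clusters 6, 10 and 25, at 4.64 to 6.36 CPM of it, held most of the 3835 nuclei without a marker (491 in cluster 17). In the pooled fit, cluster and marker state cannot be told apart. *mgamma* was higher in the pooled positive nuclei. It had 468, 759, 292 and 1952 CPM in the 4 libraries, against 73.8, 94.2, 127 and 67.8. All positive values lay above all negative ones, a log2 change of 2.74 (SE 0.44, adjusted p = 0.00221, edgeR). It was 1 of 7 members tested, where 1.74% of all genes were called higher.

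*mbeta* had 284, 216, 208 and 641 CPM against 62.9, 106, 108 and 56.2, with the same separation, and a change of 1.48 (SE 0.46, adjusted p = 0.0527, edgeR). For *mgamma* and *mbeta* alike, the share of all genes separated in this way was not counted. *Tom* stood lower in all 4 libraries (3.96, 33.1, 0 and 0 CPM against 38.2, 49.6, 47.5 and 62.3), and its change was -2.05 (SE 1.02, adjusted p = 0.236, edgeR). With 1 marker enough, a rule added after seeing how few nuclei held 2, there were 245 positive nuclei in 8 libraries. *mgamma*, *mbeta* and *m8* were then called higher, beside 9.06% of all genes. After depth matching within clusters no member passed the filter. In cluster 17 alone, added after seeing the data, 3 libraries held enough nuclei with 2 markers, too few to fit. With 1 marker enough, 130 positive and 447 negative nuclei of 7 libraries could be fitted (median 887 and 680 UMIs over all 134 and 491 such nuclei), but no member passed the filter, and 0.698% of all genes were called higher. *mgamma* had 260, 684 and 1574 CPM there as the lowest, median and highest library of the positive nuclei and 0, 35.3 and 304 of the negative ones. It was lower in the positive nuclei of library 4 (260 against 304) and higher in the other 6, a difference that was not tested.

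In ISC cluster 21, 178 nuclei had *Dl* above 0 and 274 had it at 0 (median 1476 and 1416 UMIs). *mbeta* was the only member past the filter. It had 80.2, 166 and 1236 CPM as the lowest, median and highest library in *Dl*-positive nuclei, and 380, 709 and 1043 in *Dl*-negative ones. It stood lower in the positive nuclei of 7 libraries, and library 7 went the other way with 1236 against 729 CPM. The change was -1.01 (SE 0.41, adjusted p = 0.0826, edgeR), while 11.9% of all genes were called lower. With the library as a block it was -1.24 (SE 0.31, adjusted p = 0.00585, edgeR), beside 12.5% of all genes. DESeq2 gave -1.11 (SE 0.45, adjusted p = 0.142). Leaving out each library in turn gave -1.90 to -0.83, with adjusted p from 0.000127 to 0.22 (edgeR). Of these fits, only the one without library 7, at -1.90, called *mbeta*.

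This direction is opposite to that in the discs. Tested as an interaction of *Dl* state and tissue, added after both results were seen, the *mbeta* change in the ISC cluster differed from that in the discs by -1.88 (SE 0.40, adjusted p = 0.00182, edgeR), where 7.61% of all genes differed in either direction. With the library as a block the difference was -1.90 (SE 0.37, adjusted p = 0.000743, edgeR). *malpha*, at 201 ± 150 against 160 ± 155 CPM in the ISC cluster, and *m3*, at 14.6 ± 24 against 59.3 ± 37.4, did not pass the filter there. *m3* was higher in the *Dl*-positive nuclei of none of the 8 libraries.

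**Figure D5:**
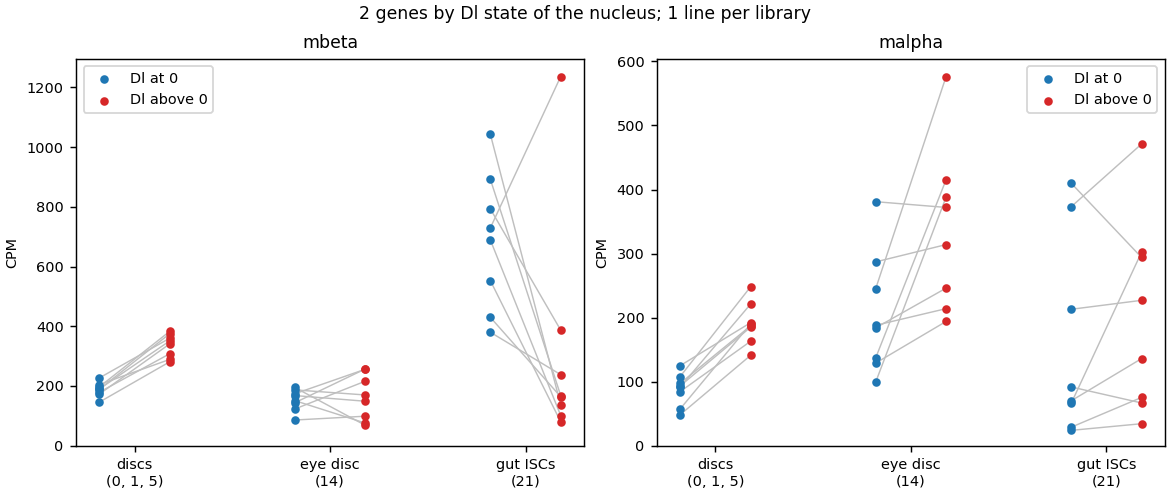
Lines join *Dl*-negative (blue) and *Dl*-positive (red) nuclei of each library for *mbeta* (left) and *malpha* (right) in CPM. The *mbeta* lines rise in all 8 libraries of the discs and fall in 7 of 8 of the ISC cluster, and the eye disc lines of *mbeta* rise in 4 of 8.

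In eye disc cluster 14, a comparison added because only 15 nuclei of the eye disc held *ato*, 462 nuclei had *Dl* above 0 and 400 had it at 0 (median 966 and 849 UMIs). None of the 6 members tested by edgeR was called, nor any of the 15 by DESeq2, while 4.04% of all genes were called higher by edgeR. Unadjusted, 3 had p under 0.05 in edgeR and 2 in DESeq2, and in both *Tom* was among them, with a lower level. The share of all genes at this unadjusted limit was not counted. *malpha* came nearest, with a median of 343 against 186 CPM, higher in 7 of 8 libraries, and a change of 0.80 (SE 0.26, adjusted p = 0.0725, edgeR). With the library as a block it was called (0.78, adjusted p = 0.0399, edgeR), beside 5.66% of all genes. *Tom* had a median of 264 against 399 CPM and was higher in 3 of 8 libraries, at -0.51 (SE 0.22, adjusted p = 0.262, edgeR).

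Likeness over the clusters was measured as Pearson's r of log2(CPM + 1) across the 28 clusters, among 6111 genes, and shared clusters and libraries enter every value. *mbeta* was most like *CG13698* (r = 0.88), *Mekk1* (0.87) and *Dok* (0.86). *malpha* was most like *Osi24* (0.92), *Lap1* (0.90) and *boi* (0.89), and *hh*, which encodes the Hedgehog ligand, followed at 0.88. *Tom* was most like *mey* and *CG14257* (both 0.86) and *ft* (0.85), with *sca* at the same value.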

How the data were processed

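Nuclei of 8 larval samples were profiled by droplet sequencing. Per the labels and the study's methods, the authors aligned the reads to BDGP6 with Cell Ranger 7.1.0 (per the submitters' processing notes), subtracted ambient RNA with DecontX and removed doublets with DoubletFinder, so no doublet caller was run here. The deposited matrix holds the resulting estimated counts per gene and nucleus, which need not be whole, together with the cluster of each nucleus.

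Estimated counts were summed per library and set of nuclei and rounded to whole numbers. Levels used libraries with at least 20 nuclei of a cluster. Contrasts used libraries with at least 5 nuclei in both sums, and at least 4 such libraries. Genes passed edgeR's filterByExpr, and edgeR 4.0.16 (R 4.3.3, TMM) gave quasi-likelihood tests, called at an adjusted p of 0.05. The genes that defined a contrast were left out of its counts. Clusters against the rest also needed a log2 change of 0.54, the study's limit. A contrast by *ato* was not made, since 1 library held 5 positive nuclei. Counts were also simulated with a fixed spread, no library effect and a single size of change in the more abundant genes. Of the changed genes past the filter, the fits recovered 100% for *Dl* in the discs, 68.8% for the proneural and 47.3% for the neuroblast contrast. For *Dl* in the ISC cluster and the eye disc it was 98.3% and 100%. False calls numbered 13, 16, 4, 1 and 3 in the same order. These shares do not tell how often members with low counts or smaller changes would be called.

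Both sums of a library come from the same larvae, so library numbers pair them. Deviations from the group means correlated by 0.36 to 0.57 within libraries for *Dl* in the discs, 0.12 to 0.41 in the eye disc, 0.07 to 0.42 in the ISC cluster, 0.06 to 0.13 for the proneural and 0.08 to 0.17 for the neuroblast contrast. The fit without the block is the one reported first.

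Alternatives were DESeq2 1.42.0, its size factors, no filter, the library block, nearest-depth nuclei, barcodes of 1 library, nuclei with at least 200 genes, values under 0.5 set to 0, thinning to 500 UMIs and leaving out each library. The 10% depth caliper, single disc clusters, 1 neuroblast marker, cluster 17 alone, *Dl* in the eye disc and the interaction were chosen after seeing the data. Every member is named, with full values for those a result turns on, and likeness is given for the 3 members named. The members and lists were chosen with earlier results of these data known.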

Additional observations from a re-analysis of the deposited data

Results flagged for a closer look

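Of 128 groups of 4 to 10 library values tested for a sample far from the rest, 8 held one, and chance gives about 1 in 20 groups. In gonad cluster 24, library 2 stood apart for *m3* (234 CPM) and *m5* (188 CPM). In neuron cluster 20, library 8 stood apart for *m7* (268 CPM). The summed level of the 15 genes was far above the other libraries in library 1 of neuron clusters 17 (1167 CPM), 6 (504 CPM) and 25 (206 CPM), and in library 3 of muscle cluster 23 (649 CPM). Library 7 had 1236 CPM of *mbeta* in *Dl*-positive nuclei of the ISC cluster.

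The *mbeta* change with *Dl* differed between the ISC cluster and the discs by -1.88 on the log2 scale (adjusted p = 0.00182, edgeR interaction), with lower levels in 7 of 8 libraries of the first and higher levels in 8 of 8 of the second. The interaction was added after both results were seen. In the fit reported first, the change inside the ISC cluster was not called (adjusted p = 0.0826, edgeR).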

How the results depend on the processing

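None of the results followed through the alternatives reversed. Some members outside that set, not called in either fit, changed sign without the filter. For example, *m8* in the neuroblast contrast went from 0.43 to -0.12, and *mbeta* in the proneural contrast from 0.28 to -0.03. In the discs, *Dl*-positive nuclei had 2 members higher in cluster 1 alone and 0 in cluster 5 alone, and 6 to 7 when each library was left out in turn. For the proneural contrast DESeq2 gave 3 members higher, and leaving out libraries gave 0 to 1. For the neuroblast contrast DESeq2 and its size factors gave 2 each, 1 marker gave 3, and nearest-depth nuclei and cluster 17 alone with 1 marker gave 0, where no member passed the filter. In the ISC cluster, no filter gave 1 higher (*m4*) and 1 lower (*mbeta*). The replicate block and nearest-depth nuclei each gave 1 lower, and leaving out libraries gave 0 to 1, with library 7 the one that changed it. In the eye disc, no filter and the replicate block each gave 1 higher, and leaving out libraries gave 0 to 1, with library 5 the one that changed it. In cluster 21 against the rest, the replicate block gave 2 members higher, and leaving out libraries gave 1 to 3, with libraries 1, 2 and 3 changing it. The block moved no other count of members called higher by over 1.5 times, and among lower calls it added *mgamma* in cluster 0, beside *mbeta* in the ISC contrast given above, and lost *mbeta* in cluster 20.

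Leaving out libraries moved the *mbeta* interaction between -2.79 and -1.71, the former without library 7. Thinning to 500 UMIs moved the share of nuclei with a member to 52.3% in cluster 14, 63.1% in 24, 31.2% in 0, 39.4% in 19 and 25.1% in 21. Barcodes of 1 library changed no count of members called higher and lost the lower call of *mbeta* in cluster 20. Nuclei with at least 200 genes and values under 0.5 set to 0 moved the summed levels by less than the spread between libraries. The depth caliper left no member to test in the proneural and ISC contrasts, and could not be fitted for neuroblasts, with 3 libraries. Nearest-depth nuclei left none in the proneural contrast.

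Sums of few nuclei limit the proneural, neuroblast and ISC contrasts, in which most members fell under the filter or at 0 in some libraries. Members with low counts could not be tested, and a call that was missed does not show equal levels. The nuclei called negative for a marker include some in which it was not detected at this depth.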
